A study of Mus musculus with 16 samples.

Results

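DNA methylation was described at 9 genes of T helper cell function, the effector cytokine genes Ifng, Il2, Il4, Il5, Il13, Il10, Il17a and Il21 and the regulator gene Tbx21, out of 21755 protein-coding genes of GENCODE vM21 on the autosomes and the X chromosome. The genes were chosen by name, with earlier results of these data known. Spleens of mice of the strain C57BL/6J, taken at 6 to 8 weeks of age, gave 16 whole-genome libraries. Of these, 8 were of CD43- B cells and 8 of CD4+ CD62L+ T cells, both isolated with magnetic beads. Each cell type had 4 libraries from males and 4 from females, and within each sex 2 were bisulphite (BS) and 2 oxidative bisulphite (oxBS) libraries. BS conversion does not separate 5-methylcytosine from 5-hydroxymethylcytosine, while oxBS reads the latter as unmethylated. The mice carried no transgene or treatment in the labels, and the samples are described there as pooled. Oxidation was applied to a portion of an adaptor-ligated sample, so a BS and an oxBS library may share DNA, and p-values measure the spread between libraries, which may be technical.

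A naive CD4+ T cell has not yet met antigen and makes little effector cytokine. After activation it can become a Th1 cell, which makes interferon gamma under the transcription factor T-bet, a Th2 cell, which makes interleukins 4, 5 and 13, or a Th17 cell, which makes interleukin 17A. DNA methylation at CpG sites of these loci is known to be remodelled as helper cells differentiate, and B cells can also make some of these cytokines, interleukin 10 among them.

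A methylation level was the percentage of methylated calls among all calls of a region in a library. The libraries held between 123323834 and 170619848 calls, or 5.78 to 7.99 per CpG. The label of each cell type was checked at the windows of 1 kb on either side of the transcription start site (TSS) of marker genes. A window counted as called where the test used for the 9 genes gave an adjusted p below 0.05 and the levels differed by 20 points or more. All 8 B cell marker windows were lower in B cells and 7 were called, and 8 of 9 T cell marker windows were lower in T cells and 7 were called, with Cd28 the exception at 89.3% in B cells and 91.4% in T cells. Windows of Cd8a and Cd8b1, which mark the other major T cell lineage, were also called lower in T cells, at 60.8% and 35.2%. None of the 3 natural killer, 4 myeloid and 2 red cell marker windows was called, and of 4 regulatory T cell marker windows Il2ra was called. The myeloid marker Lyz2 was nevertheless lower in B cells, at 47.0% against 65.1%, by -18.0 points (quasi-binomial adjusted p = 0.00041), and its libraries did not overlap. The part of other cell types in the results was not tested.

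The Ifng promoter and the Il21 intron are shown because their CpGs differed between the cell types, and the promoters of Il2 and Tbx21 are shown for contrast. Of the 9 genes, 8 had an entry in the RefSeq promoter table of GRCm38.p6, the exception being Il10. Capitals mark CpG sites, and each sequence runs 5′ to 3′ on the strand of its gene. The 3 promoters are the 250 bases before the RefSeq start of Ifng (chr10:118440796-118441045, plus strand), Il2 (chr3:37125955-37126204, minus strand) and Tbx21 (chr11:97115332-97115581, minus strand). The other sequence is 300 bases within an intronic tile of Il21 (chr3:37228055-37228354, minus strand). It holds 3 of the 4 CpGs of the tile, and another stretch of that length could hold as many.
Ifng promoter: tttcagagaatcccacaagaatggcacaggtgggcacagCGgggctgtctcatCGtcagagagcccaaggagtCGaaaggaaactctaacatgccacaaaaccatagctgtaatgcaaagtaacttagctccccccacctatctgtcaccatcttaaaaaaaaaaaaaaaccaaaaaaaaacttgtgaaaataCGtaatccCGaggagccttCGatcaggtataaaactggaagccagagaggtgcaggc
Il2 promoter: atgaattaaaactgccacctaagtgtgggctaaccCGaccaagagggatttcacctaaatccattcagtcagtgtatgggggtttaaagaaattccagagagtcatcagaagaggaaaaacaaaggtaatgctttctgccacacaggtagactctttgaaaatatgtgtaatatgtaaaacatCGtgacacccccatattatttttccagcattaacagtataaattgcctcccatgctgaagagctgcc
Tbx21 promoter: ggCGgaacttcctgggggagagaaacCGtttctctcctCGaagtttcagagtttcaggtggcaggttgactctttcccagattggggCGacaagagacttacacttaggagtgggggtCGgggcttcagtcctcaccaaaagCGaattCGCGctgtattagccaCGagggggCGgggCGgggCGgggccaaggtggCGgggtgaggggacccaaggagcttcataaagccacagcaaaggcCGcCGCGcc
Il21 intron: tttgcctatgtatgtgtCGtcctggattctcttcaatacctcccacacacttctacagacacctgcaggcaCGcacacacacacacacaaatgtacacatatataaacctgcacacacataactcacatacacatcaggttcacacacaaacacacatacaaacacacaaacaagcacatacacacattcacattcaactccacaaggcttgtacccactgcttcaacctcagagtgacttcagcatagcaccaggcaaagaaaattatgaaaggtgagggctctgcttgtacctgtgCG

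The promoter of Ifng held 6 CpGs in these bases and that of Il2 held 2, while that of Tbx21 held 16. Of the 6 Ifng sites, the 3 nearest the start, at positions -57, -49 and -38 from it, were 97.0%, 86.4% and 91.9% methylated in B cells and 11.2%, 1.10% and 5.88% in T cells. These were pooled over the 8 libraries of a cell type, with at least 66 calls per site in B cells and 89 in T cells. At Tbx21, 12 of the 16 sites had no methylated call in either cell type, which at these depths allows levels of up to 3.09% to 5.77% (3 calls of the total). Such limits cover counting error only. In single tiles, a level of 0% in a single library allows up to 4.76% to 11.1%.

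To compare the cell types at the gene starts, calls were pooled over the TSS ± 1 kb and tested with a quasi-binomial logistic model that also held sex and assay, adjusted by the Benjamini-Hochberg method over 21227 windows. Calls required an adjusted p below 0.05 together with a pooled difference of at least 20 percentage points. Of the 9 windows 1 was called, that of Ifng, against 1.1% of all windows tested (0.702% toward B cells and 0.396% toward T cells). On the adjusted p alone 5 passed, against 9.79% of all windows. These were Ifng, Il2, Il13 and Tbx21, higher in B cells as were 6.98% of all windows, and Il10, higher in T cells. The median difference (B cells minus T cells) over all windows was 0.522 points.

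Levels in B cells were highest at Il17a (93.5% ± 1.01, SD over 8 libraries) and then fell through Il13, Il5, Il21, Il4, Ifng, Il2 and Il10 to Tbx21 (3.73% ± 0.841). From Il17a to Ifng each gene's libraries overlapped those of the next gene, whereas Ifng, Il2, Il10 and Tbx21 were each separate from the next. In T cells the order ran from Il5 (93.9% ± 1.98) through Il17a, Il13, Il21, Il4, Ifng, Il2 and Il10 to Tbx21 (2.22% ± 0.721). There the gaps lay between Il4 and Ifng and between Il10 and Tbx21, and the libraries of Ifng, Il2 and Il10 overlapped from one gene to the next. Il5, Il13, Il4, Il17a and Il21 thus remained above 80% in every library of both cell types.

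**Figure D1:**
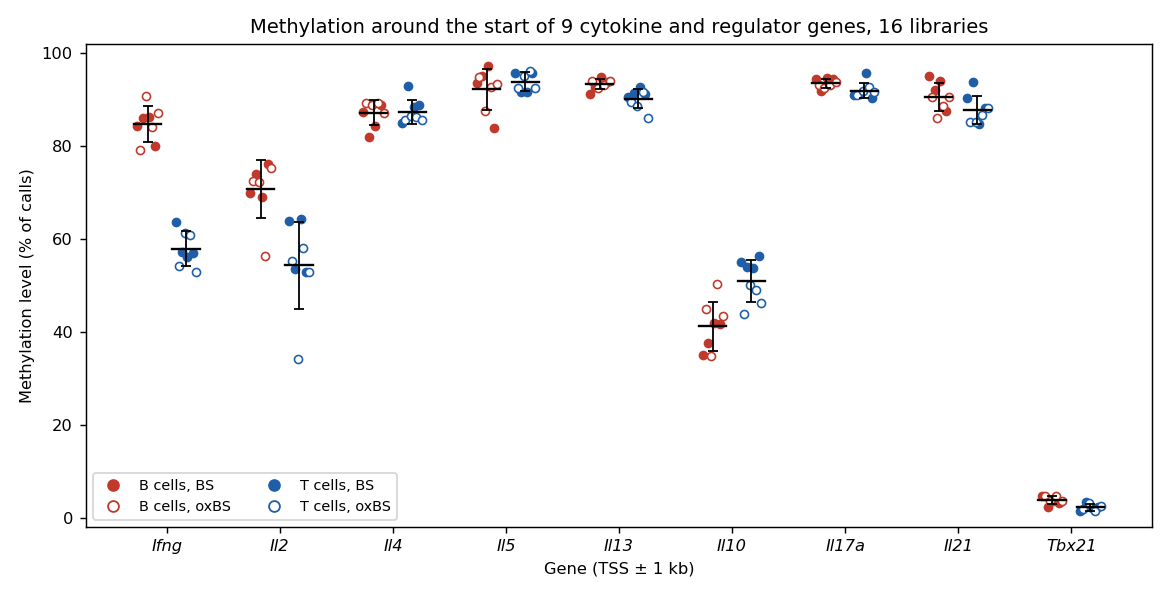
Methylation level (percentage of calls) in the TSS ± 1 kb of the 9 genes. Points are libraries, filled for BS and open for oxBS, in red for B cells and blue for T cells, and black bars give the mean and SD of 8 libraries. Only at Ifng do the cell types not overlap.

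Ifng encodes interferon gamma, the main Th1 cytokine. Its window (27 CpGs) had levels of 79.3% to 90.8% in B cells, with a median of 85.2%. In T cells the levels ran from 53.0% to 63.6%, with a median of 57.0%. Every T cell library was thus below every B cell library. The groups did not overlap, in either direction, in 3.56% of all windows. Standard errors (SE), here and below, are those of the difference between mean library levels. The pooled difference was 27.3 points (SE 1.88, adjusted p = 2.87e-06), and the exact permutation p of 0.0001554 was the smallest that 8 against 8 libraries can give. With the 4 and 4 male libraries alone the difference was 26.1 points and its adjusted p was 0.0809.

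The difference at Ifng was confined, within this window, largely to the sites before the start. All 9 CpGs there, at positions -590 to -38 from the TSS, were at least 40.04 points lower in T cells, at 48.0% to 97.0% in B cells and 0% to 19.05% in T cells. Of the 18 CpGs after the start, 2 were lower in T cells by at least 20 points and 1 was higher. The 500 bp tile at -545 to -46 from the TSS (chr10:118440501-118441000, intergenic, 7 CpGs) ranged from 56.8% to 81.2% in B cells around a median of 68.2%, and from 0% to 6.90% in T cells around a median of 3.99%. The pooled difference of 65.7 points (quasi-binomial adjusted p = 2.41e-07) was the largest of any tile at the 9 genes. With male libraries alone it was 63.1 points, and the call was lost at an adjusted p of 0.0565.

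A second tile was called at Ifng, past the end of the gene. It lay 7955 to 8454 bases after the TSS (chr10:118449001-118449500, 4 CpGs), and ranged from 92.3% to 100% in B cells (median 97.7%) and from 47.8% to 67.4% in T cells (median 62.0%). The groups did not overlap, and the difference was 36.9 points (quasi-binomial adjusted p = 1.15e-05). It came from the first 2 CpGs, at 93.2% and 97.1% in B cells against 23.6% and 31.2% in T cells, while the other 2 were above 90% in both. Of the uncalled tiles, that at -45 to 454 from the TSS was at 94.0% in B cells and 79.0% in T cells (quasi-binomial adjusted p = 0.000285). That 4455 to 4954 bases after the TSS went the opposite way, at 78.1% and 92.1% (quasi-binomial adjusted p = 0.000821). The gene windows whose 16 library levels lay closest to those of Ifng were Cd8a, C1qtnf3 and Gtsf2, with mean absolute differences of 4.03, 4.17 and 4.38 points.

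Tbx21 encodes T-bet, the transcription factor that directs the Th1 fate. Its start lies in a CpG-dense window (128 CpGs), which ranged from 2.27% to 4.72% in B cells (median 3.59%) and from 1.37% to 3.32% in T cells (median 2.12%). Pooled over the window, both cell types were almost unmethylated and their libraries overlapped. The CpGs at -922 and -944 from the TSS were methylated, at 90.6% and 85.7% in B cells and 86.5% and 69.0% in T cells. That at -806 was at 29.7% and 28.8%. The pooled difference of 1.59 points includes these sites. It passed the adjusted p (0.0287) but was far under the limit on size.

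Within the gene body of Tbx21 the cell types did separate. An intronic tile 11331 to 11830 bases after the TSS (8 CpGs) ranged from 52.4% to 76.5% in B cells (median 63.7%) and from 8.99% to 18.2% in T cells (median 11.3%). The groups did not overlap, and the difference was 51.5 points (quasi-binomial adjusted p = 3.04e-07). This tile was called in all 29 alternatives tried.

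The neighbouring intronic tile, 11831 to 12330 bases after the TSS, was also called, at 81.6% to 91.9% in B cells (median 88.2%) and 50% to 71.4% in T cells (median 65.5%). There the groups did not overlap either, and the difference was 23.9 points (quasi-binomial adjusted p = 0.000503). The remaining called tile, in coding sequence 13831 to 14330 bases after the TSS, differed by 21.2 points (quasi-binomial adjusted p = 0.00743), with overlapping groups of 80% to 94.7% in B cells and 53.8% to 81.8% in T cells. Leaving out T cell library 14 took it under 20 points, to 19.2. In that tile 1 of 3 CpGs differed by 20 points or more, at 91.4% in B cells and 42.6% in T cells.

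Il2 encodes interleukin 2, the growth factor that T cells make soon after activation. Its window (13 CpGs) ranged from 56.4% to 76.1% in B cells (median 72.3%) and from 34.1% to 64.2% in T cells (median 54.4%). The groups overlapped, and 1 library of each stood below the others of its group. The difference was 16.4 points (SE 3.99, adjusted p = 0.0148, exact permutation p = 0.000932), and it was 15.6 points (adjusted p = 0.0067) without those 2 libraries, an alternative chosen after the data had been seen. A tile at -41 to 458 from the TSS (chr3:37125501-37126000, coding, 4 CpGs) was called, at 71.4% to 96.9% in B cells (median 89.6%) and 31.8% to 78.3% in T cells (median 58.5%). Its difference was 29.7 points (quasi-binomial adjusted p = 0.00182), largest at the CpG 70 bases after the TSS, with 78.1% in B cells against 32.2% in T cells. The 2 CpGs in the printed Il2 promoter differed by 7.98 and 4.02 points, so the difference lay on either side of those bases.

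**Figure D2:**
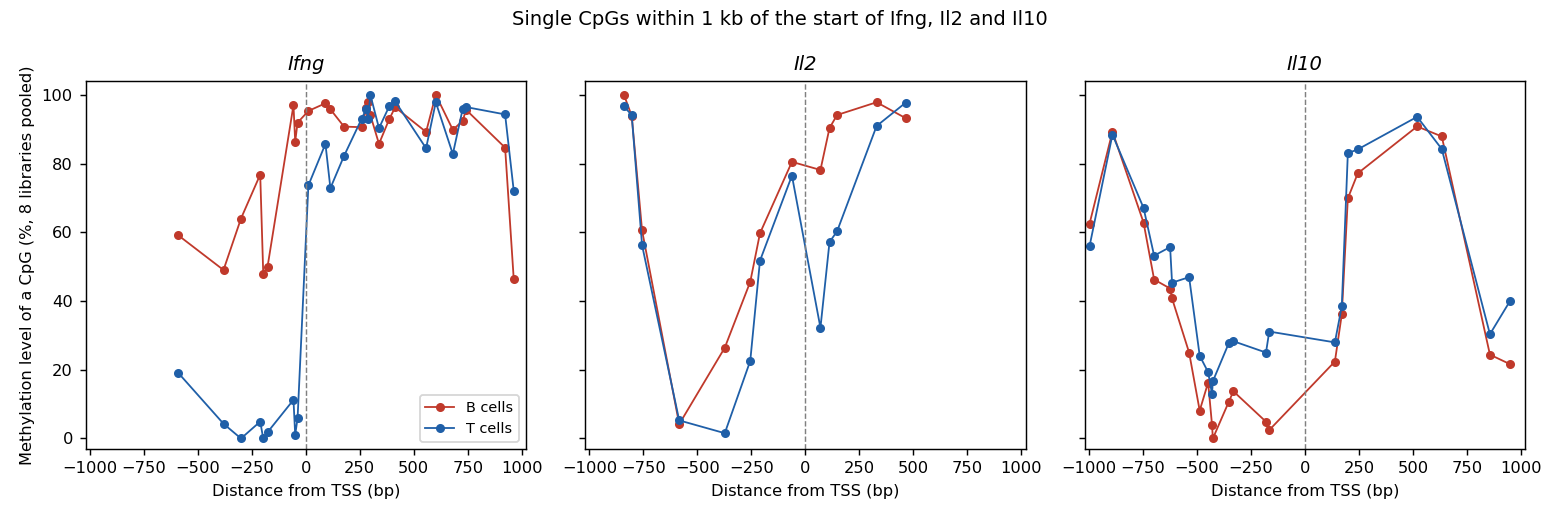
Methylation level of single CpGs, pooled over 8 libraries of a cell type, against distance from the TSS in bp for Ifng, Il2 and Il10. Red is B cells and blue T cells, and the dashed line is the TSS. At Ifng the T cell line lies at 0% to 19.05% before the start. It rises after the start but stays below the B cell line up to the CpG at 177 bp.

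Il4, Il13 and Il5 encode the Th2 cytokines and lie in one locus on chromosome 11. Pooled over the TSS ± 1 kb, all 3 genes were highly methylated in both cell types, though single CpGs were lower. At Il4 (29 CpGs) B cells ranged from 81.9% to 89.4% (median 88.1%) and T cells from 84.9% to 92.9% (median 86.4%). Il4, an inducer of Th2 differentiation and of IgE class switching, differed by -0.06 points (quasi-binomial adjusted p = 0.987), a sign that turned in 9 of 31 alternatives. Il5, the eosinophil growth factor, had a median of 93.5% in B cells against 93.9% in T cells and differed by -1.38 points (SE 1.70, quasi-binomial adjusted p = 0.659), or by -2.0 to -0.391 points with each library left out. Il13, which acts on airway epithelium and smooth muscle, ranged from 91.3% to 94.9% in B cells (median 93.4%) and from 86.1% to 92.8% in T cells (median 90.9%). The 2 groups overlapped, and the difference of 3.06 points (SE 0.845) had an adjusted p of 0.0296. Of the 34 CpGs of Il13, 1 differed by 20 points or more. It lay at -45 from the TSS, at 93.9% in B cells and 54.9% in T cells. At Il4 the CpG at -251 was at 42.3% and 38.2%.

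Away from the starts, 2 tiles of this locus were called. The first (chr11:53606001-53606500, 3 CpGs) was in an intron of the GENCODE record of Il4, 12169 to 12668 bases after the TSS, which is past the end of the RefSeq record (53612460 to 53618665). It ranged from 63.2% to 91.2% in B cells (median 81.2%) and from 35.7% to 55.9% in T cells (median 45.1%), without overlap, and differed by 34.8 points (quasi-binomial adjusted p = 0.000448). The adjoining tile farther from the start was low in both, at 19.5% and 5.07% (quasi-binomial adjusted p = 0.00207), and its difference did not reach 20 points. Before the Il4 start, uncalled tiles went in both directions, and those that passed the adjusted p were lower in B cells. The tile at -3331 to -2832 was at 68.4% in B cells against 85.6% in T cells (quasi-binomial adjusted p = 0.00555). That at -4331 to -3832 was at 31.4% against 49.7% (quasi-binomial adjusted p = 0.00448). The other called tile (chr11:53644001-53644500, 5 CpGs) lay at -9798 to -9299 from the TSS of Il13 and went the opposite way to the first. It ranged from 42.9% to 79.2% in B cells (median 61.7%) and from 85.3% to 97.4% in T cells (median 90.4%). These groups did not overlap, and the difference was -29.2 points (quasi-binomial adjusted p = 0.000666). Tiles centred at -1548.5 and -2048.5 from the TSS of Il13 were at 7.38% and 9.94% in B cells and 5.77% and 3.50% in T cells, and neither passed the adjusted p. No tile was called among 30 at Il5, against 2.86% of all tiles in the genome.

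Il10 encodes interleukin 10, a suppressive cytokine made by several T cell subsets and by B cells. Its window (23 CpGs) was of intermediate level, from 34.8% to 50.3% in B cells (median 41.7%) and from 43.8% to 56.4% in T cells (median 51.8%). It was the only window of the 9 that passed the adjusted p with a higher level in T cells. The difference was -9.37 points (SE 2.45, adjusted p = 0.0276, exact permutation p = 0.00202), and the groups overlapped. The value was -15.2 points in BS libraries and -3.87 points in oxBS libraries. The test of that difference gave an unadjusted p of 0.00847 and an adjusted p of 0.341.

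Il10 had 4 called tiles, of which the outer 2 were higher in B cells and the inner 2 in T cells. The tile at -1344 to -845 from the TSS (chr1:131018501-131019000, intergenic, 10 CpGs) was higher in B cells, at 56.9% to 80.6% (median 67.3%) against 22.2% to 39.2% in T cells (median 29.96%). It did not overlap, and the difference was 37.2 points (quasi-binomial adjusted p = 1.76e-05). The tile 2656 to 3155 bases after the TSS was also higher in B cells, at 18.4% to 41.3% (median 34.1%) against 0% to 17.4% in T cells (median 6.75%), by 25.3 points (quasi-binomial adjusted p = 0.00255) and without overlap.

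Between them, 2 adjoining tiles from 1156 to 2155 bases after the TSS of Il10 were higher in T cells. The first ranged from 25.3% to 42.4% in B cells (median 28.0%) and from 40.6% to 63.5% in T cells (median 50.9%), and differed by -20.5 points (quasi-binomial adjusted p = 0.00329). All 11 of its CpGs were higher in T cells, by 7.32 to 42.9 points. The second ranged from 36.7% to 63.7% in B cells (median 49.5%) and from 62.7% to 82.8% in T cells (median 71.9%), and differed by -21.9 points (quasi-binomial adjusted p = 0.0056). Both tiles overlapped between groups and lay close to the limit. The first was no longer called without any 1 of 5 libraries (B cells 1, 2 and 10, T cells 6 and 16), with values down to -18.8 points, and the second without B cell library 3, at -19.5 points.

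Il17a encodes interleukin 17A, the cytokine of Th17 cells. Its window (29 CpGs) ranged from 92.0% to 94.7% in B cells (median 93.5%) and from 90.4% to 95.7% in T cells (median 91.5%). The groups overlapped, and the difference of 1.58 points (SE 0.687) had an adjusted p of 0.258. None of its 20 tiles was called, and 19 in B cells and 18 in T cells were at 80% or more.

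Il21 encodes interleukin 21, which follicular helper T cells supply to germinal centre B cells. Its window (17 CpGs) ranged from 86.0% to 95.0% in B cells (median 90.6%) and from 84.8% to 93.8% in T cells (median 87.4%), and the difference of 2.67 points (SE 1.55) had an adjusted p of 0.259. The gene body beyond 1 kb was lower in T cells, at 74.5% ± 6.25 against 89.8% ± 1.71 in B cells (SD, 8 libraries each, not tested as a whole).

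Of 32 tiles at Il21, 4 were called, all higher in B cells. The largest difference, 42.7 points (quasi-binomial adjusted p = 1.48e-05), was in an intronic tile 4136 to 4635 bases after the TSS (chr3:37228001-37228500, 4 CpGs). It ranged from 86.7% to 97.2% in B cells (median 95.3%) and from 30.4% to 72.7% in T cells (median 53.4%), and the groups did not overlap. The difference was 33.5 points in BS and 53.2 points in oxBS libraries, and the T cell libraries of the assays were separate, at 55.0% to 72.7% in BS and 30.4% to 51.9% in oxBS. The 3 CpGs in the printed Il21 intron were at 89.8%, 98.6% and 95.1% in B cells and 22.0%, 35.2% and 53.1% in T cells. The CpG of the tile outside the printed bases differed least, at 92.7% and 81.9%. An intronic tile 6136 to 6635 bases after the TSS ranged from 17.2% to 51.9% in B cells (median 28.3%) and from 0% to 7.69% in T cells (median 3.70%), and 1 of its 4 CpGs, at 67.5% against 2.99%, carried most of the 27.2 points (quasi-binomial adjusted p = 0.00105).

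The other called intronic tile of Il21, 2636 to 3135 bases after the TSS, ranged from 77.8% to 91.2% in B cells (median 84.6%) and from 35.2% to 72.3% in T cells (median 52.7%), without overlap, by 31.0 points (quasi-binomial adjusted p = 0.000262). It was 20.5 points in BS and 44.4 points in oxBS libraries, with T cells at 60.8% to 72.3% in BS and 35.2% to 44.6% in oxBS. The tests of the difference between assays at the tiles from 4136 and from 2636 bases gave unadjusted p-values of 0.0361 and 0.014, and an adjusted p of 0.972 for both. The tile 13136 to 13635 bases after the TSS, past the gene end, ranged from 27.7% to 59.3% in B cells (median 43.4%) and from 14.6% to 26.9% in T cells (median 21.4%), by 20.3 points (quasi-binomial adjusted p = 0.00248). That last call was lost without any 1 of 5 libraries (B cells 3, 4 and 12, T cells 13 and 14), with values down to 18.8 points. It was also lost with CpGs of at least 5 calls (19.3 points) and, in an alternative chosen after seeing the data, without both libraries farthest from their groups at Il2 (19.99 points). The tile centred at -1114.5 from the TSS was lower in B cells, at 11.6% against 30.6% (quasi-binomial adjusted p = 0.00116), and did not reach 20 points.

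**Figure D3:**
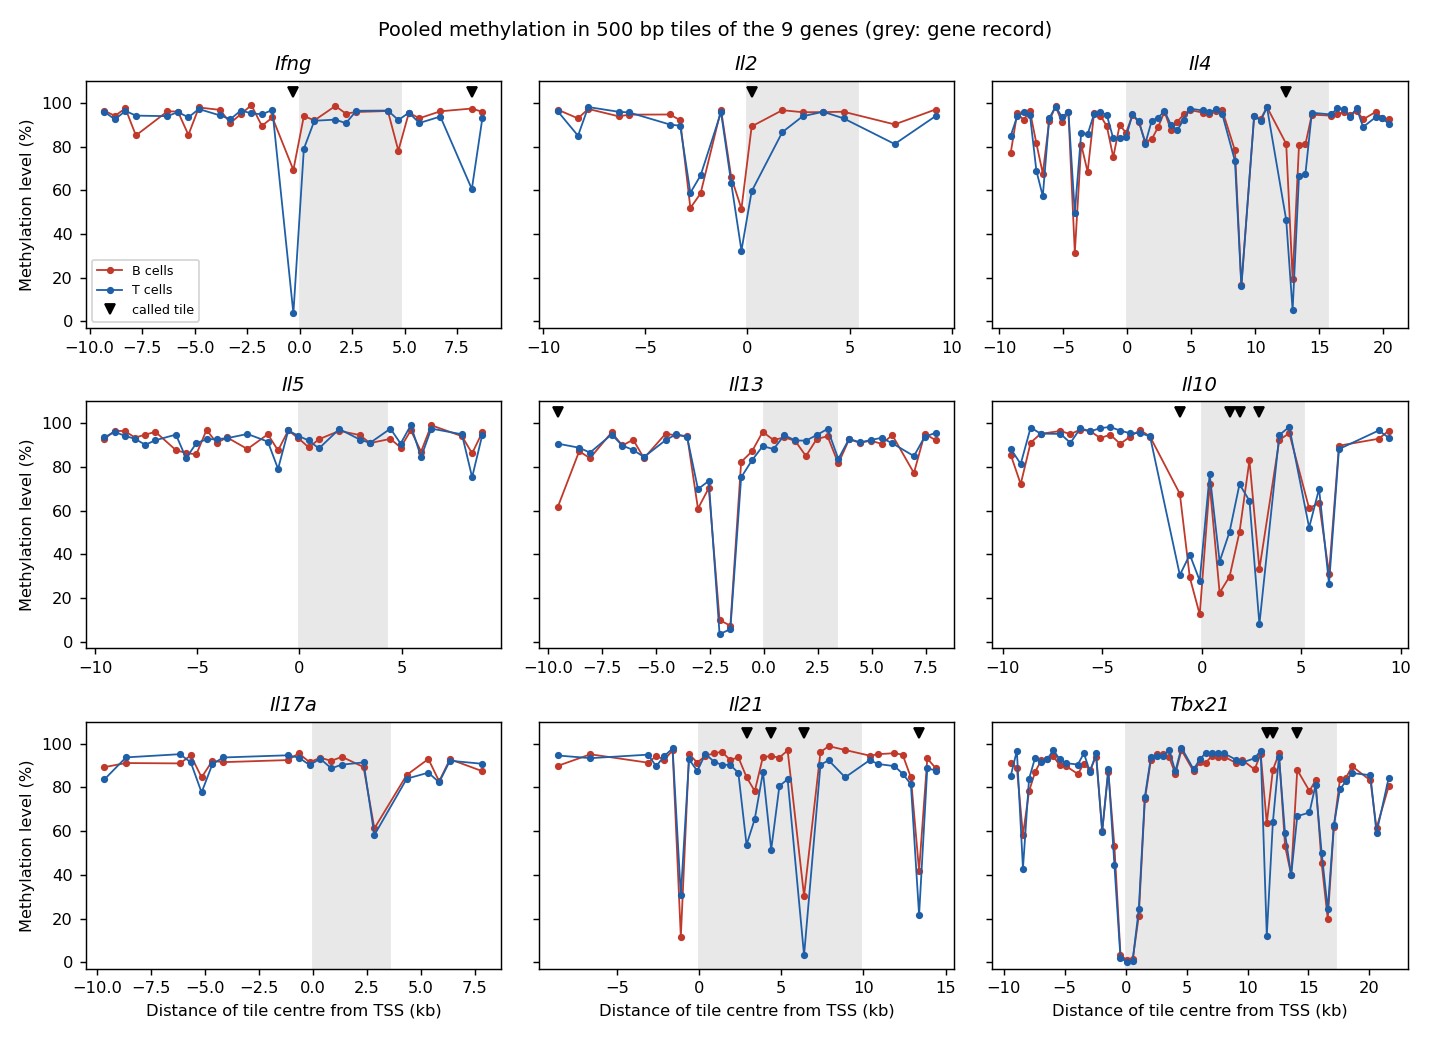
Pooled methylation level of B cells (red) and T cells (blue) in 500 bp tiles with at least 3 CpGs, against the distance of the tile centre from the TSS in kb, for the 9 genes. Grey marks the gene and black triangles the called tiles. Il5 and Il17a have none, where 2.86% of all tiles in the genome were called. At Tbx21 both lines drop to near 0 at the start.

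Across the 9 genes 295 tiles were tested, counting tiles shared by Il4 and Il13 once. Of these 16 were called (5.42%), against 2.86% of the 2799460 tiles tested in the genome. Higher in B cells were 13, where 1.83% of all tiles were called in that direction, and higher in T cells were 3, where 1.02% were. On the adjusted p alone 30 passed, against 5.34% of all tiles, and the groups did not overlap in 17, against 3.06% of all tiles. With BS libraries alone 2 tiles were called and with oxBS libraries alone 6, in fits of 4 against 4 libraries, with 0.572% and 0.948% of the genome's tiles called. Pooled levels of 80% or more were found in 242 of the 295 tiles in B cells and 232 in T cells, against 83.6% and 82.3% of all tiles. The median tile was at 92.3% in B cells and 91.6% in T cells, and in the genome at 92.2% and 91.7%.

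**Figure D4:**
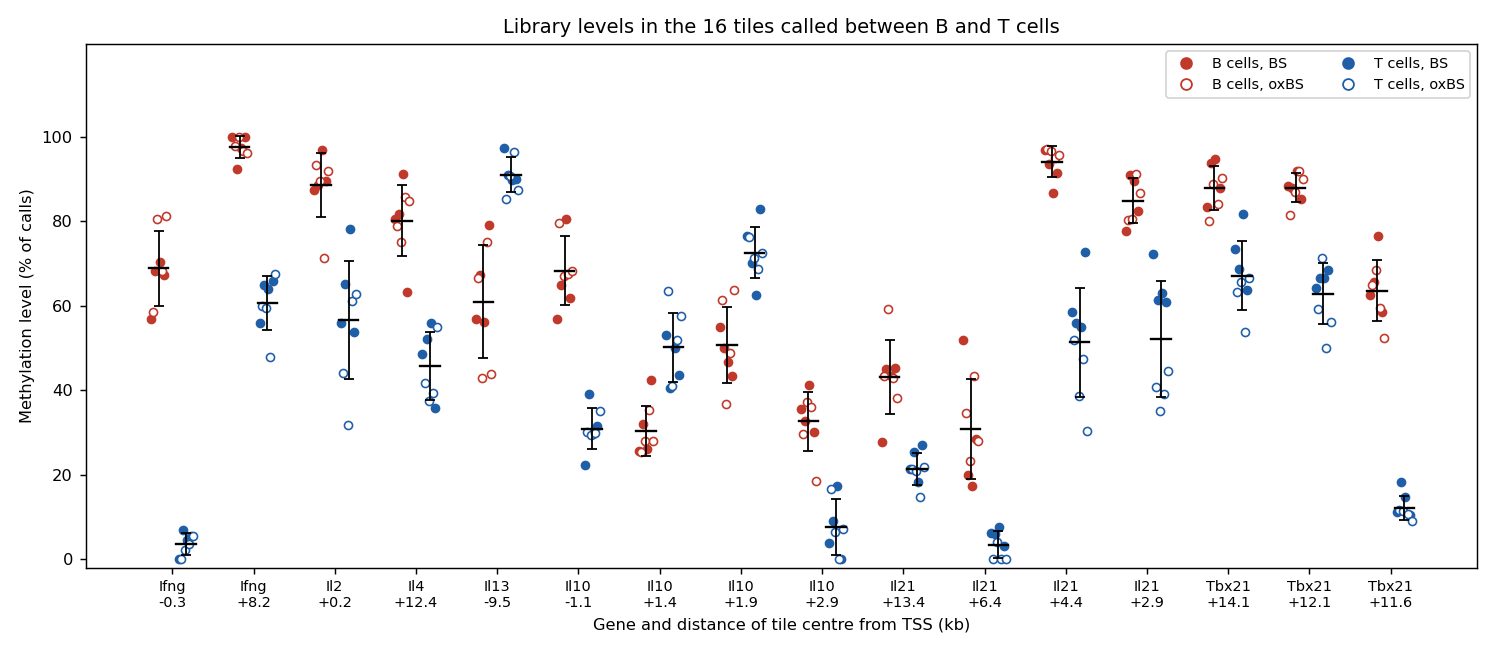
Methylation level (percentage of calls) of each library in the 16 called tiles, labelled by gene and distance of the tile centre from the TSS in kb. Points, colours and bars are as in the plot of gene starts. The B cell mean lies above the T cell mean in 13 tiles and below it in 3.

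Short sequence motifs of factors that act on these genes were counted on both strands of the 8 RefSeq promoters (250 bases before to 50 after the start) and of the 16 called tiles. The letters TGGAAA (NFAT) were in 5 of 8 promoters, those of Il2, Il4, Il5, Il13 and Il21, and in 21.4% of 32851 promoters in the table. They were in 5 of 16 tiles and in 41.8% of all tested tiles. The STAT motif TTCNNNGAA was in 2 promoters, those of Ifng and Il4, against 8.30% of all promoters, and in 5 tiles, against 16.7% of all tiles. The AP-1 motif TGANTCA was in the Il17a promoter, against 7.81% of all promoters, and in 4 tiles, 3 of them at Il10, against 14.3% of all tiles. The GATA motif AGATAA was in the Il13 promoter, against 11.2%, and in 4 tiles, against 26.5%. The cAMP response element TGACGT was in the Il17a promoter, against 7.51%, and in 1 tile, against 5.45%. The T-box motif AGGTGTGA was in none of the promoters or tiles, against 1.28% of all promoters and 2.16% of all tiles. These are matches of letters, not sites of binding.

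Among 40 other cytokines and regulators of helper T cells, 3 windows were called, all lower in T cells, against 1.1% of all windows called and 0.702% called in that direction. Runx3, a partner of T-bet, was at 58.4% in B cells and 35.1% in T cells (quasi-binomial adjusted p = 0.00103). Il24, a cytokine gene of the Il10 cluster, was at 79.5% and 50% (quasi-binomial adjusted p = 5.13e-06). Cd40lg, which encodes the ligand by which helper T cells activate B cells and lies on the X chromosome, was at 88.7% and 37.2% (quasi-binomial adjusted p = 1.71e-05). Its T cell libraries, from both sexes, were widely spread, at 29.1% ± 21.4 against 88.3% ± 3.82 in B cells (SD, 8 libraries each). Without the limit on size 11 of the 40 passed, against 9.79% of all windows. Under 20% in both cell types were 20 of the 40, where 54.5% of all windows were under 20% in B cells. Of the lineage regulators, Gata3 of Th2 cells was at 2.79% and 1.96%, and Bcl6 of follicular helper cells at 0.464% and 0.0882%.

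The assays and sexes were compared in the same windows. Between BS and oxBS libraries no window of the 9 genes was called in B cells or in T cells by the quasi-binomial model, against 0% of all windows in each. At an unadjusted p under 0.05 there were 0 of the 9 in B cells, against 2.98% of all windows, and 1 in T cells, against 9.46%. The latter was Il10, at 54.7% ± 1.22 in BS and 47.2% ± 2.82 in oxBS libraries (SD, 4 libraries each), with an adjusted p of 0.491. Between females and males none of the 9, all autosomal, was called, against 1.99% of all windows, and none had an unadjusted p under 0.05. The differences ran from -0.997 points at Ifng to 3.07 points at Il10.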

How the data were processed

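The deposited values were counts. Unmethylated and methylated calls of every CpG were listed by the authors for each library, with both strands combined and without normalization. Per the submitters' processing notes and the study's methods, reads were trimmed with Trim Galore 0.6.0 and mapped to mm10 with Bismark 0.20.0 (SAMtools 1.3.1 is also named), with a MAPQ of at least 10. Positions that were no CpG of GRCm38 (44938 to 61854 per library) were left out.

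Calls were pooled over the TSS ± 1 kb of genes (GENCODE vM21) and over 500 bp tiles, from 10 kb before the TSS to 5 kb past the gene end for the 9 genes. Regions needed 3 CpGs and 10 calls in at least 6 libraries per cell type (3 where 4 libraries were compared with 4). Libraries carry no mouse, so each counted as 1 replicate. Cell types were compared with a quasi-binomial logistic model (F test, dispersion of at least 1), with Benjamini-Hochberg adjustment over all regions, and windows also with a two-sided exact permutation test. A call needed an adjusted p under 0.05 and 20 points. Single CpGs and regions of genes were not tested. Named were the 9 genes, their called tiles, the called genes of the list of 40 with lineage regulators (1 gene of the list is not reported here), and the 3 windows most like Ifng. The tiles that were not called but are named were chosen after their values were seen. The genes and lists were chosen with earlier results of these data known.

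In a test on simulated data with the depths of these libraries, the model called 32% of windows with a true difference of 20 points and 100% at 30 points among 21227, and 34% and 94% of tiles among 200000, with no false call. At 20 points, the limit itself, 47 of 50 windows and 28 of 50 tiles passed the adjusted p, and 16 and 17 of them were called. Of 21027 windows without a difference 4 passed the adjusted p, and of 199800 such tiles 0 did. The spread between simulated libraries was held fixed, so the test does not cover regions with more spread. Alternatives covered covariates, assay, sex, limits, windows, dispersion, call minimums and each library left out. Python 3.11.15, NumPy 2.4.6, SciPy 1.17.1, Numba 0.67.0, pandas 2.3.3 and Matplotlib 3.10.9 were used.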

Additional observations from a re-analysis of the deposited data

Results flagged for a closer look

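Libraries that stood apart from the other 7 of their cell type by Dixon's criterion were sought in 50 groups of values, of which chance marks about 1 in 20. There were 4 such values. In the Il2 window, B cell library 9 was lowest at 56.4%, with the others at 69.0% to 76.1%, and T cell library 8 was lowest at 34.1%, with the others at 52.8% to 64.2%. In the Il2 tile at the TSS, B cell library 9 was again lowest, at 71.4%, with the others at 87.5% to 96.9%. In the Il17a window, T cell library 13 was highest at 95.7%, with the others at 90.4% to 92.7%. Both libraries low at Il2 were oxBS libraries.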

How the results depend on the processing

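The count of called windows, 1 of 9, became 2 with a limit of 10 points (2.89% of all windows called) or with TSS ± 500 bp (1.39%; Ifng and Il2), 0 with 30 points (0.495%) or male libraries alone (0.41%), and 5 with no limit (9.79%). It was 1 to 1 with each library left out. The count of called tiles, 16, became 28 with a limit of 10 points (4.66% of all tiles called), 7 with 30 points (1.64%), 30 with no limit (5.34%), 2 with BS (0.572%), male (0.578%) or female (0.588%) libraries alone, 6 with oxBS libraries alone (0.948%) and 9 with 1000 bp tiles (2.17%), and was 15 to 17 with each library left out. The cause was not tested, except that fits of 4 against 4 have fewer libraries. The Il4 window, never called, changed sign to 2.72 points with oxBS libraries alone, 0.336 with females alone, 1.49 with TSS ± 500 bp and 3.84 in the 1 kb before the TSS, and ran from -0.445 to 0.696 with each library left out. No other window or called tile changed sign. No paired analysis was possible because the library numbers are unique to a library and no group shares them. Depth of 5.78 to 7.99 calls per CpG limits single sites.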

Other observations

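Differences between cell types were compared between assays and between sexes in 50 tests at the windows and called tiles of the 9 genes. The smallest unadjusted p was 0.00847, 4 were under 0.05 and the smallest adjusted p was 0.341. Windows and tiles were adjusted separately, and not over these 50 tests alone. The count of 4 is given without the share of all windows and tiles.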
